A study of Mus musculus with 6 samples.

Results

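Ppargc1a, Ppargc1b, Esrra, Esrrb, Esrrg and Ppara, the genes of the PGC-1 coactivators and of the nuclear receptors they work with, were taken by symbol from the mouse Ensembl identifiers of the deposited counts. All 6 were found among the 39177 rows. They were measured in RNA of crude heart mitochondria from C57BL/6N mice aged 3 to 4 weeks. The 3 control mice carried Polrmt alleles with loxP sites around exon 3 and no cre (L/L, genotype given as Polrmt +/+). The 3 knockout mice carried the same alleles together with cre (L/L, cre, given as Polrmt -/-). Cre was driven by the promoter of muscle creatine kinase, a gene of muscle cells, so that other cells of the heart may still hold an intact gene. Polrmt encodes the RNA polymerase that transcribes mtDNA, and the comparison asked which transcripts differ when it is removed from heart muscle.

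PGC-1alpha and PGC-1beta do not bind DNA themselves. They are coactivators that are drawn to promoters by transcription factors, among them the estrogen-related receptors (ERRs) and PPARalpha, and raise the transcription of genes for oxidative phosphorylation, the TCA cycle and fatty acid oxidation. The heart, which lives largely on fatty acids, is rich in these factors. ERRalpha and ERRgamma have overlapping targets in heart muscle, and ERRgamma is known for the change to oxidative metabolism around birth.

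The mRNAs of nuclear genes in these libraries are those that came down with the mitochondria, and their depth was low. After mtDNA rows and 5 loci that collect rRNA reads were left out, 76949 to 109351 nuclear counts remained in a control library and 126339 to 164004 in a knockout library. mtDNA held 79.5% to 83.5% of all counts of a control and 21.1% to 25.8% of a knockout, so levels are given as counts scaled to 1000000 nuclear counts (CPM). At this depth 3 counts stand for a level between 18.1 CPM in knockout 3 and 38.1 CPM in control 1. For Polrmt itself, the control libraries held 3, 2 and 1 counts, against 2, 5 and 1 for the knockouts. A gene-level count does not resolve exon 3, so it checks neither the deletion nor the labels. Heart muscle markers were abundant, 8 genes summing to 65525 to 79246 CPM in a control and to 62051 to 67371 CPM in a knockout. Of these, 4 of the 8 were called lower, beside 4.28% of all genes tested. Of 7 genes listed as markers of skeletal muscle, Myh1, Myh2, Myh4 and Mylpf had no count in any library. Tnnt3 had 1 count, in knockout 2. Ckm had a mean of 1193 CPM in controls and 1273 CPM in knockouts, and Acta1, described with the other markers below, was called higher. Of RNAs listed as retained in the nucleus, Malat1 had a mean of 7485 CPM in controls and 7384 CPM in knockouts. Neat1 had means of 784 and 1282 CPM, and neither passed the test. How much of the RNA came from nuclei in the preparation was not tested.

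Esrrg (ENSMUSG00000026610, chromosome 1, 187608791 to 188214885, GRCm38), which encodes ERRgamma, was the 1 regulator of the 6 called at an adjusted p under 0.05. The 6 were not tested against each other. Esrrg had a fitted level 2.70-fold that of controls, entered the test through its knockout levels, and kept its call in 9 of 15 other settings. Esrra, its close relative, had a fitted level 1.56-fold that of controls that did not pass the test, and the other 4 regulators had fitted changes between -0.11 and 0.33 on the log2 scale, none past the test. Of all 4368 nuclear genes tested, 9.62% were called, 5.33% as higher and 4.28% as lower in knockouts. Among the 3048 tested genes within the range of mean levels of the 6, 6.10% were called and 3.51% were called higher. With 6 genes, a count of 1 call shows nothing particular to them.

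**Figure D1:**
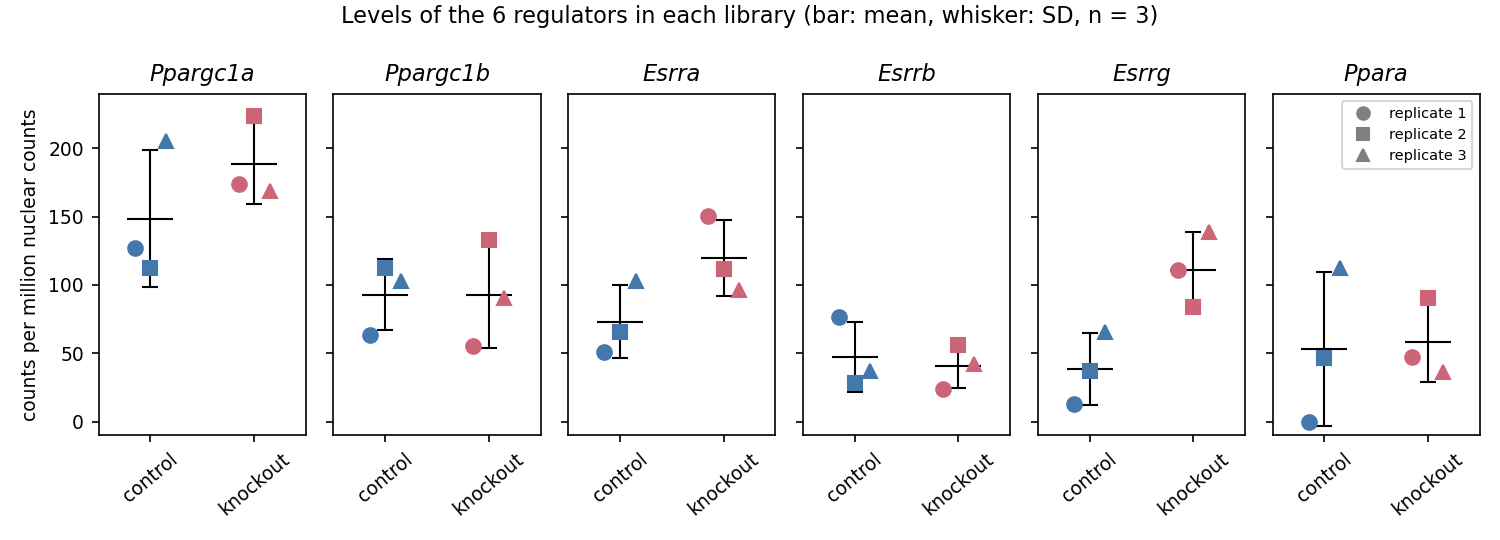
Level of each regulator (CPM, y axis) in the 3 control and 3 knockout libraries, with a point for each library, a bar at the mean and whiskers of 1 SD. The knockout points of Esrrg, between 83.7 and 138.8, lie above all its control points, while the groups overlap for the other 5 genes.

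The ERRs bind DNA without a known natural ligand and differ in how strongly each is expressed among tissues. Control libraries 1 to 3 held 1, 4 and 7 Esrrg counts, against 14, 12 and 23 for knockout libraries 1 to 3. As levels these were 12.7, 37.4 and 65.4 CPM for the controls and 110.8, 83.7 and 138.8 CPM for the knockouts. All 3 knockouts lay above all 3 controls, and control 1, the library with the fewest nuclear counts, held the lowest value, from a single count. The means were 38.5 ± 26.4 and 111.1 ± 27.5 CPM (SD, n = 3 each). By edgeR's quasi-likelihood test the log2 fold change was 1.43 ± 0.44 SE, with an adjusted p of 0.0204 over all genes tested. Knockouts lay wholly above controls in 13.1% of tested genes. From summed counts alone, 12 in controls and 49 in knockouts, the ratio was 2.74 with a 95% Poisson interval from 1.44 to 5.67, which covers counting error only. Esrrg entered the test through its knockout levels, since 1 control and 3 knockout libraries reached the 42.4 CPM that 3 libraries had to reach. With no low-count filter its adjusted p was 0.0544. The call was also lost with DESeq2 (adjusted p = 0.291) and without control 1 (0.153), control 2 (0.109), knockout 1 (0.0657) or knockout 3 (0.136), while the log2 fold change stayed between 1.13 and 2.03.

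Esrra (ENSMUSG00000024955, chromosome 19, 6910977 to 6921813) encodes ERRalpha, a receptor that induces oxidative genes together with PGC-1alpha. The controls held 4, 7 and 11 Esrra counts, or 50.8, 65.5 and 102.8 CPM. The knockouts held 19, 16 and 16, or 150.4, 111.6 and 96.6 CPM. Knockouts 1 and 2 lay above every control, and knockout 3 lay just below control 3. The means were 73.1 ± 26.8 and 119.5 ± 27.8 CPM (SD, n = 3 each), and the log2 fold change of 0.64 ± 0.38 SE did not pass the test (edgeR adjusted p = 0.341). The ratio of summed counts was 1.56 (95% Poisson interval 0.928 to 2.70), an interval that holds 1. Trmt112 lies on the opposite strand and overlaps the span of Esrra, but had 5 counts over all libraries.

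Esrrb (ENSMUSG00000021255, chromosome 12, 86361117 to 86521628) encodes ERRbeta, best known from pluripotent stem cells and the placenta. It had the fewest counts of the 6 genes. The controls held 6, 3 and 4 Esrrb counts, or 76.3, 28.1 and 37.4 CPM. The knockouts held 3, 8 and 7, or 23.8, 55.8 and 42.2 CPM. The groups overlapped, with control 1 highest and knockout 1 lowest. The log2 fold change was -0.11 ± 0.59 SE (edgeR adjusted p = 0.952), and the ratio of summed counts was 0.930 (95% Poisson interval 0.431 to 2.07). That interval covers counting error only and is not a limit of detection, so a difference in Esrrb was neither shown nor excluded at this depth.

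Within the family, shares of ERR counts need no scaling between libraries. Esrrg held 1 of 11, 4 of 14 and 7 of 22 ERR counts in controls, or 9.09%, 28.6% and 31.8%. In knockouts 1 and 2 it held 14 of 36 and 12 of 36, or 38.9% and 33.3%, and in knockout 3 it held 23 of 46. The groups stood apart by a narrow gap, and the counting intervals of single libraries overlapped. These shares reuse the Esrrg counts that gave its call, so the gap is not a second result. Pooled, the share of Esrrg was 25.5% in controls (95% Clopper-Pearson interval 13.9 to 40.3) and 41.5% in knockouts (32.5 to 51.0). The pooled share of Esrra was 46.8% and 43.2%, and that of Esrrb 27.7% (15.6 to 42.6) and 15.3% (9.30 to 23.0).

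**Figure D2:**
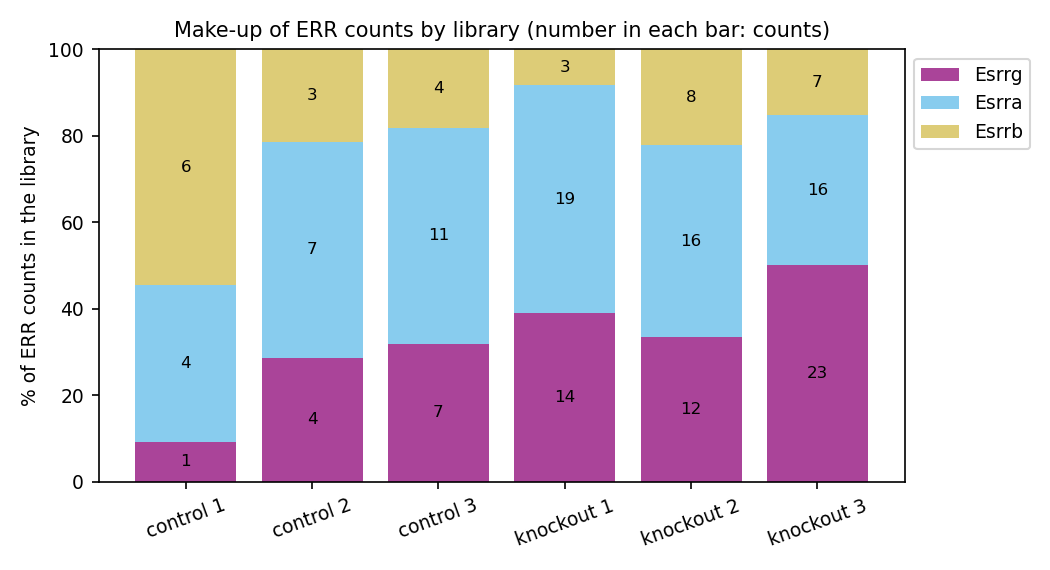
Share of ERR counts (y axis, percent of the counts of Esrra, Esrrb and Esrrg together) held by each gene in each library, with the number of counts written in each bar. Esrrg holds between 9.09% and 31.8% in controls and at least 33.3% in knockouts.

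Ppargc1a (ENSMUSG00000029167, chromosome 5, 51454250 to 51567726) encodes PGC-1alpha, the coactivator induced by cold, exercise and fasting. It had the most counts of the 6 genes. The controls held 10, 12 and 22 Ppargc1a counts, or 127.1, 112.3 and 205.6 CPM. The knockouts held 22, 32 and 28, or 174.2, 223.2 and 169.0 CPM. Control 3 lay above knockouts 1 and 3, so the groups overlapped. The means were 148.3 ± 50.2 and 188.8 ± 29.9 CPM (SD, n = 3 each), and the difference of 0.33 ± 0.28 SE on the log2 scale did not pass (edgeR adjusted p = 0.576). The ratio of summed counts was 1.25 (95% Poisson interval 0.858 to 1.85).

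Ppargc1b (ENSMUSG00000033871) encodes PGC-1beta, which shares many targets with PGC-1alpha. The controls held 5, 12 and 11 Ppargc1b counts, or 63.5, 112.3 and 102.8 CPM. The knockouts held 7, 19 and 15, or 55.4, 132.5 and 90.5 CPM. The knockouts spanned the whole control range, and the group means were 92.9 ± 25.9 and 92.8 ± 38.6 CPM (SD, n = 3 each). The log2 fold change was -0.02 ± 0.38 SE (edgeR adjusted p = 0.989), and the ratio of summed counts was 0.984 (95% Poisson interval 0.594 to 1.65). Ppargc1a held 61.1% of the counts of both coactivators in controls (44 of 72, 95% Clopper-Pearson interval 48.9 to 72.4) and 66.7% in knockouts (82 of 123, 57.6 to 74.9).

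Ppara (ENSMUSG00000022383, chromosome 15, 85734983 to 85802819) encodes PPARalpha, the fatty acid-activated receptor that drives genes of fatty acid oxidation. The controls held 0, 5 and 12 Ppara counts, or 0, 46.8 and 112.2 CPM. The knockouts held 6, 13 and 6, or 47.5, 90.7 and 36.2 CPM. The controls spanned more than the knockouts on either side. The 0 of control 1 allows a level of up to 38.1 CPM. The log2 fold change was -0.01 ± 0.49 SE (edgeR adjusted p = 0.998), and the ratio of summed counts was 0.988 (95% Poisson interval 0.513 to 1.95). This ratio rested on 1 library, since without control 3 it was 2.13 and the log2 fold change was 1.08 (edgeR adjusted p = 0.443).

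Pooled over the 6 genes, 136 counts in controls and 266 in knockouts gave a ratio of 1.31 (95% Poisson interval 1.06 to 1.63). By library the pooled level was 330.4, 402.4 and 626.2 CPM for the controls and 562.1, 697.6 and 573.3 CPM for the knockouts. Control 3 lay above knockouts 1 and 3, so the groups overlapped although the counting interval lies above 1. Without Esrrg, a pool chosen after its value was seen, the ratio was 1.18 (0.939 to 1.48). The 3 ERR genes together had a ratio of 1.69 (1.19 to 2.42). Their summed levels stood apart, at 140, 131 and 206 CPM for the controls and 285, 251 and 278 CPM for the knockouts. Knockouts lay wholly above controls in 13.1% of single genes tested. The ERR pool holds the Esrrg counts given above, so its gap is not a second result. Without Esrrg that pool had a ratio of 1.32 (0.870 to 2.05) and its groups overlapped. The PGC-1 genes together had a ratio of 1.15 (0.851 to 1.56).

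**Figure D3:**
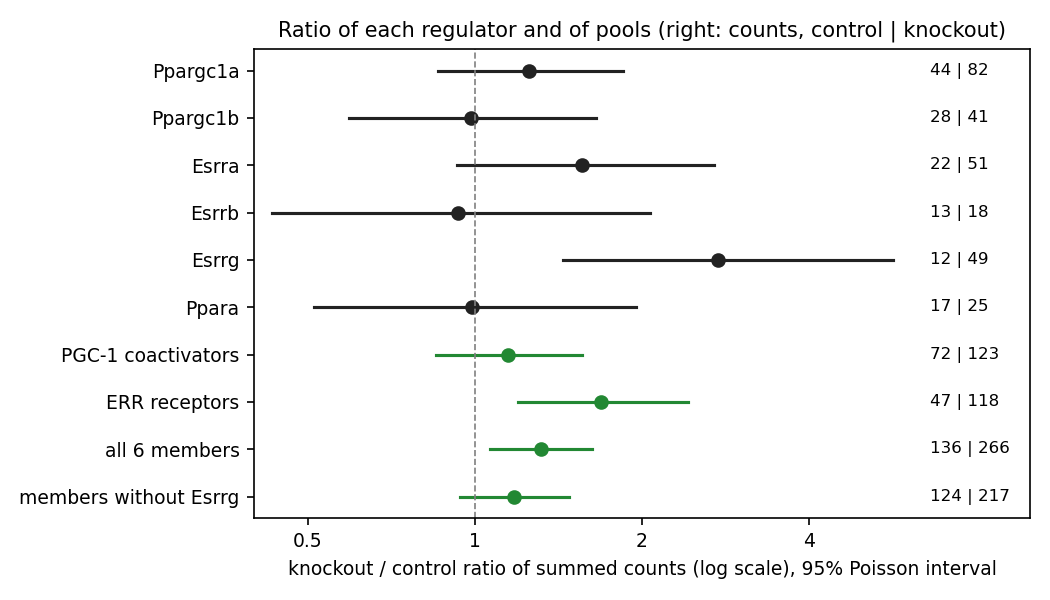
Ratio of summed counts, knockout over control (x axis, log scale), for each regulator and for pools of them, with 95% Poisson intervals and the counts at the right. The interval of Esrrg, from 1.44 to 5.67, lies above 1, as do those of the ERR receptors and of all 6 members, both of which hold Esrrg.

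Divided by the length of all annotated exons of a gene, the order of the regulators within the libraries could be compared. Which of these exons were expressed was not tested. In controls the mean levels per kilobase of exon were 23.3 CPM for Ppargc1b, 22.5 for Ppargc1a, 16.7 for Esrra, 13.8 for Ppara, 7.81 for Esrrb and 6.21 for Esrrg. The SDs of these control levels were between 4.23 and 14.7 CPM per kilobase, and the ranges of all neighbours in that order overlapped. In knockouts the mean levels per kilobase were 28.6 CPM for Ppargc1a, 27.2 for Esrra, 23.3 for Ppargc1b, 17.9 for Esrrg, 15.2 for Ppara and 6.71 for Esrrb. Esrrg thus stood last in controls and above Ppara and Esrrb in knockouts. Neighbours in the knockout order overlapped, except that Ppara, at least 9.44 CPM per kilobase, lay just above Esrrb, at most 9.23. Each knockout value of Esrrg, at least 13.5 CPM per kilobase, also exceeded each of Esrrb, whereas in controls their ranges overlapped. The place of Esrrg in the knockout order reuses the counts that gave its call, so it is not a second result. Against the median gene tested, at 15.4 CPM per kilobase over all libraries, Ppargc1a lay higher at 25.6 and Esrrb lower at 7.26.

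The genes whose log2 CPM followed a regulator most closely over the 6 libraries, among genes of at least its level, are given as a description. For Esrrg these were Kif1b, Ogdh and Lmod3, with Pearson r of 0.99, 0.99 and 0.98. Ogdh encodes a subunit of the TCA cycle enzyme 2-oxoglutarate dehydrogenase and is in the list of ERR targets, and its own log2 fold change was 0.23 (edgeR adjusted p = 0.305). For Ppargc1a they were Trak2, Mycbp2 and Slc25a4, with r of 0.97, 0.95 and 0.93, the last of which encodes the adenine nucleotide translocator of heart and muscle. For Esrra they were Fkbp1a, Huwe1 and Atp6v1b2, with r of 0.99, 0.98 and 0.97. Ppargc1b was followed by Aff1, Nf1 and Tmem94, each at 0.96. Esrrb was followed by Sgca, Snx9 and Clip4, between 0.98 and 0.99, and Ppara by Kat7, Irs1 and Usp7, at 0.98 each. With between 933 and 3980 candidate genes and 6 libraries that share depth and group, high coefficients occur for every regulator.

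Promoter windows from RefSeq (GRCm38.p6), which span 250 bases before to 50 after a start site, were read for Ppargc1a, Esrra, Esrrb, Esrrg (4 windows) and Ppara, 9 windows in all. They were searched on both strands for 6 motifs of factors that act in this pathway or in the stress response. Ppargc1b was left out of the search, so nothing is said of its promoter. Not every Esrrg window matched a GENCODE transcript of the gene in the bases after its start site. The ERR half-site AAGGTCA, the cAMP response element TGACGTCA and the GABPA site CCGGAAG were in none of the 9, and in 4.72%, 1.79% and 8.86% of 32851 promoter windows of the same length. The cAMP response half-site TGACGT, the core of that element, was in the window of Ppargc1a and in 7.51% of all windows, where it includes every match of the full element. The NRF1 palindrome was in the window of Ppara and in 0.971% of all windows, and the CHOP-ATF4 composite site TGATGCAA in that of Esrra and in 0.895%. The 3 stretches are shown because they hold the matches, in capitals, read along the strand of the gene, and Ppargc1a carries its match on the opposite strand. They lie at chr5:51567744-51567801 (minus strand), chr15:85735719-85735775 (plus strand) and chr19:6922002-6922058 (minus strand), in that order.
Ppargc1a: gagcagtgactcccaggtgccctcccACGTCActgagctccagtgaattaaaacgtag
Ppara: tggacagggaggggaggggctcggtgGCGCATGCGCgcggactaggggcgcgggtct
Esrra: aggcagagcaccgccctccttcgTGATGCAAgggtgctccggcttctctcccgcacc
The Ppargc1a match lies 50 to 45 bases before the start site, that of Ppara 31 to 22 and that of Esrra 227 to 220. These are matches of letters and were not tested for binding, and none of the 3 genes that hold them passed the test for a difference in level.

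Among the partners of these regulators that were tested, the called genes were lower in knockouts. Of 30 coactivators, corepressors and upstream signals, 22 were tested, of which 3 fell and the other 19 did not pass, beside 4.28% called lower over all genes tested. The median log2 fold change was 0.02, and -0.01 over all genes tested. Another 8 had too few counts to be tested. Among these, Klf15 held 2, 2 and 2 counts in controls and 5, 9 and 13 in knockouts. Its levels stood apart, with knockouts higher. The levels of Sirt1 and Prkag2, also not tested, stood apart with knockouts lower. A gap in either direction occurred in 25.7% of tested genes. Crebbp, an acetyltransferase that coactivates many factors, was at 275.5 ± 73.5 CPM in controls and fell to 161.6 ± 17.0 CPM (SD, n = 3 each), a log2 difference of -0.79 ± 0.25 SE with an edgeR adjusted p of 0.0225. Lpin1, a phosphatidic acid phosphatase that also coactivates PGC-1alpha and PPARalpha, fell 1.66-fold (edgeR adjusted p = 0.0473), though its groups overlapped. Perm1, a muscle regulator that acts with PGC-1 and ERR, had a log2 fold change of 0.23 and Prkaa2, the AMP-activated kinase subunit of muscle, one of 0.30, neither past the test. The call of Crebbp did not hold without control 2, control 3, knockout 1 or knockout 2 (adjusted p up to 0.173), and that of Lpin1 without any library but control 2 (0.379).

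Of 9 partner and related receptors, 4 were tested, of which 1 fell and 3 did not pass, beside 4.28% called lower over all genes tested. Nr1d1, the haem-binding repressor REV-ERBalpha of the circadian clock, was at 175.5 ± 34.5 CPM in controls and fell to 94.1 ± 33.5 CPM (SD, n = 3 each), with an edgeR adjusted p of 0.0491. This call was lost without any library but knockout 2 (adjusted p up to 0.332). Rxra, the partner of PPARalpha on DNA, had 41 counts in controls and 37 in knockouts, and its difference of -0.71 ± 0.35 SE on the log2 scale did not pass. Of 14 genes of the branch that leads through NRF1, GABPA and TFAM to mtDNA, 2 were tested and neither passed. On the log2 scale Gabpa, an ETS factor of mitochondrial genes, differed by 0.48 ± 0.39 SE and Polg, the mtDNA polymerase, by 0.32 ± 0.42 SE. Nrf1, Tfam and Tfb2m had too few counts to be tested, with 4, 9 and 2 counts in controls and 3, 10 and 10 in knockouts.

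Of 31 genes known as PPAR targets, 26 were tested, of which 5 rose, 1 fell and 20 did not pass, beside 5.33% called higher and 4.28% called lower over all genes tested. The median log2 fold change was 0.16. Acot2, a mitochondrial acyl-CoA thioesterase, was at 44.1 ± 29.4 CPM in controls and rose to 247.4 ± 33.4 CPM (SD, n = 3 each), a log2 difference of 2.56 ± 0.36 SE with an edgeR adjusted p of 1.26e-09. Its near-identical copy Acot1 had no control count and 4 knockout counts, and reads that fit both genes may be split between them. Txnip, a regulator of glucose uptake, rose 2.53-fold, and Fabp3, the fatty acid-binding protein of heart muscle, 1.81-fold. Lpl, which frees fatty acids from lipoproteins, was at 4705 ± 593 CPM in controls and fell to 2068 ± 522 CPM (SD, n = 3 each). Plin5, a protein of lipid droplets, also rose (log2 fold change 1.27 ± 0.42 SE) and is named here after its value was seen. Like Esrrg, Plin5 and Acot2 entered the test through their knockout levels, with 1 control and 3 knockout libraries at the level the filter asks for. With no low-count filter the edgeR adjusted p of Plin5 was 0.0929. The call of Plin5 did not hold without control 2, control 3, knockout 1 or knockout 3 (adjusted p up to 0.279). Pdk4, a kinase that closes pyruvate dehydrogenase and a classic PPAR target, had 44, 22 and 13 counts in controls and 76, 50 and 82 in knockouts, and its log2 fold change of 0.80 ± 0.55 SE did not pass.

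Of 31 genes known as ERR targets, 30 were tested, of which 1 rose, 3 fell and 26 did not pass, beside 9.62% called over all genes tested. The median log2 fold change was 0.05. Ryr2, the calcium release channel, fell 2.33-fold and Atp2a2, the calcium pump, 1.91-fold. Cox7a1, the muscle isoform of a cytochrome oxidase subunit, was at 276.5 ± 64.2 CPM in controls and fell to 131.9 ± 41.5 CPM (SD, n = 3 each), with an edgeR adjusted p of 0.00375. Idh3a, a subunit of the TCA cycle's isocitrate dehydrogenase, rose 1.42-fold, with an edgeR adjusted p of 0.0454. The call of Idh3a was lost without any one of the 6 libraries (adjusted p up to 0.342), and that of Cox7a1 without control 1 or knockout 1 (0.1001). A fall here is relative to the other nuclear transcripts of the same preparation.

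**Figure D4:**
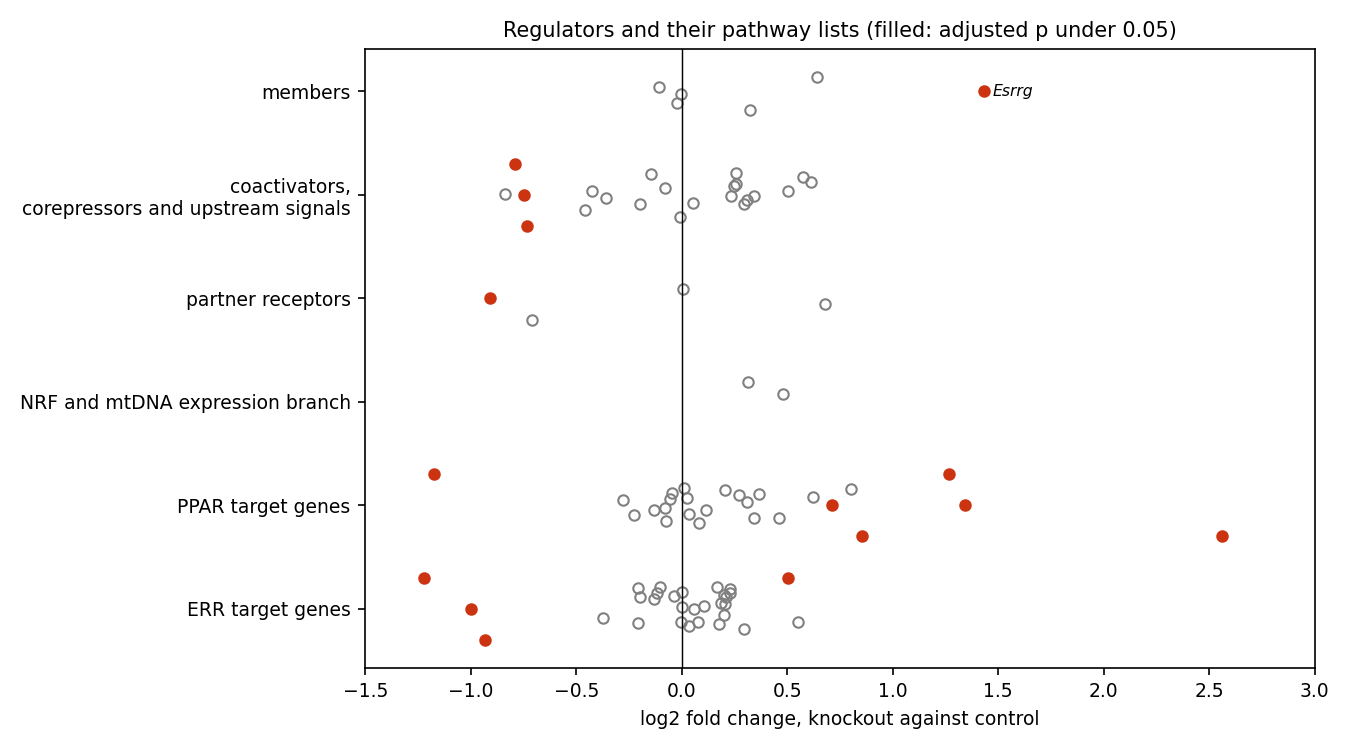
Log2 fold change, knockout against control (x axis), of the tested genes of each list, with filled points at an edgeR adjusted p under 0.05. Esrrg, at 1.43, is the filled and named point among the 6 regulators, and 26 of the 30 points of the ERR target list are open.

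The summed marker levels of macrophages, fibroblasts, endothelium, and smooth muscle and pericytes were each lower in every knockout than in every control. Most of the single fibroblast and endothelial markers did not pass the test. The summed level of 6 macrophage markers was 542.8 to 699.0 CPM in a control and 213.8 to 277.6 CPM in a knockout. Of the 4 macrophage markers tested, 3 were called lower, beside 4.28% of all genes tested. That share also stands beside the marker counts that follow. Among the macrophage markers, C1qb entered the test through its control levels, with 9, 6 and 7 counts in controls. C1qb held 2, 0 and 2 counts in knockouts. Fibroblast markers summed to 10589 to 11209 CPM in a control and 9149 to 10541 CPM in a knockout, with 1 of 7 tested genes lower. For endothelial markers these sums were 1533 to 1754 CPM and 1203 to 1465 CPM, and 7 of 7 genes did not pass. For smooth muscle and pericyte markers they were 2019 to 2302 CPM and 1314 to 1870 CPM, with 2 of 5 tested genes lower. Of these 5 only Cspg4 had a fitted change above 0, with means of 180.7 CPM in controls and 256.7 CPM in knockouts. It did not pass the test. Acta1, the skeletal alpha-actin gene, held 16, 9 and 3 counts in the controls and rose 16.0-fold to 189, 251 and 236 counts in the knockouts. Beside it, Myh1, Myh2, Myh4 and Mylpf of the same marker list had no count in any library. Which cells held the Acta1 RNA was not tested. No marker of macrophages, fibroblasts, endothelium or smooth muscle was at 0 over either group. Nuclear depth was higher in every knockout than in every control. The part of these differences in the values of the regulators was not tested, and in such bulk samples fewer cells of a type and less RNA per cell cannot be told apart.

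The authors' deposited table of the same libraries lists 5 of the 6 regulators and not Ppara. In the authors' deposited table Esrrg has a log2 fold change of 1.495 with a false discovery rate of 0.0173, and Esrra one of 0.66 with a rate of 0.345. The authors' deposited table gives Ppargc1a 0.34, Ppargc1b -0.01 and Esrrb -0.09 on the log2 scale, with rates of 0.633, 0.997 and 0.973. The authors' normalised values of Esrrg were 1, 5 and 7 for the controls and 13, 10 and 16 for the knockouts. The groups stood apart in these values, which come from the same libraries and are no second measurement. A rate under 0.05 was given by the authors' deposited table to 5.32% of its 6319 genes.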

How the data were processed

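Crude heart mitochondria of 6 mice gave 1 library each. A miRNeasy kit for RNA, a TruSeq kit for libraries and paired-end MiSeq runs are named per the labels' protocols. HISAT 0.1.6, featureCounts 1.3.5-p4, edgeR 3.11.2 (R 3.2.0) and build GRCm38 are listed per the submitters' processing notes. Not given in the sources used here were strand setting, handling of multiply aligned reads and annotation release. The authors deposited raw counts per gene, and normalised values that are treated as a score. The authors' deposited table holds log2 fold changes, p-values and false discovery rates per the file headers.

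Symbols and positions came from GENCODE M21 (GRCm38), which named 37570 rows. Nuclear rows, without mtDNA and without Gm42418, Lars2, Gm23935, Gm15564 and Mir6236, were tested with edgeR 4.0.16 (quasi-likelihood, robust, TMM) after filterByExpr on nuclear totals (minimum count 5, minimum total 15), with Benjamini-Hochberg adjustment over all genes tested. A gene with adjusted p under 0.05, 2-sided, was called. The SE is the one implied by the F statistic. Ratios of summed counts have exact conditional 95% intervals, and shares have exact Clopper-Pearson ones. Since reads carried no molecular identifiers, intervals and floors (3 counts) cover counting error only. The fits were tested on simulated data. Members, lists and pools were chosen with earlier results of these data known. Named genes were the 6 members, up to 4 called members of each list by smallest adjusted p (with none called, the 2 of highest level), and for each member the 3 genes of highest Pearson r of log2 CPM (prior count 2). Others were named after their values were seen, and some called list genes are counted but not reported here by name. Alternatives were another scaling, filter or test (DESeq2 1.42.0), each library left out, the replicate number as a block, and sex, read from Xist and Y-linked counts (control 2 and knockout 1 female), as a covariate. Replicates differed by more than sampling noise, at 1.19 to 1.43 chi-square units per degree of freedom.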

Additional observations from a re-analysis of the deposited data

How the results depend on the processing

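Of the 15 alternatives that tested Esrrg, 9 kept its call, and its log2 fold change was 1.47 with DESeq2, 1.47 with no low-count filter and between 1.13 and 2.03 with single libraries left out. Its adjusted p ranged from 0.0145 to 0.291. With a minimum count of 10 it was not tested, nor were Esrrb and Ppara. Ppargc1a (0.13 to 0.67) and Esrra (0.48 to 0.98) stayed above 0 and were not called in 16 of 16 alternatives. The signs of the others turned, with no call in any alternative: Ppargc1b was 0.0186 with no low-count filter and 0.0310 with 1 count required in all 6 libraries, and between -0.33 and 0.23 with libraries left out. Esrrb then lay between -0.38 and 0.35. Ppara was 0.0113 with the rRNA-collecting loci kept, 0.00618 with no TMM, 0.0678 with DESeq2, 0.0342 with no low-count filter and 0.0432 with the replicate block, and between -0.46 and 1.08 with libraries left out.

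In controls most gene-assigned counts are mtDNA, and in knockouts most fall to the 5 loci that collect rRNA reads. Scaled on all such counts, the ratios were 5.03 for Ppargc1a, 3.95 for Ppargc1b, 6.25 for Esrra and 3.74 for Esrrb. They were 11.0 for Esrrg, 3.97 for Ppara and 5.28 for all 6. They were 4.61 for the PGC-1 pair, 6.77 for the ERR genes, 5.32 for Esrra with Esrrb and 4.72 for the members without Esrrg. With libraries left out, the ratio of Ppara lay between 0.707 and 2.13 and that of all 6 between 1.19 and 1.64, the highest without control 3.

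Among all nuclear genes, 233 were called higher and 187 lower. DESeq2 called 84 and 46, and with no low-count filter 99 were lower. With libraries left out, between 154 and 215 were higher and between 95 and 134 lower. Over the pathway lists together 6 genes were higher and 8 lower, against 3 and 3 with DESeq2, 4 lower with no low-count filter and 5 lower with 1 count required in all 6 libraries. With libraries left out, between 3 and 6 were higher and between 3 and 6 lower. The 14 list genes called kept their direction in 224 of 224 values and lost the call in 57. Among those DESeq2 lost were Cox7a1, Crebbp, Idh3a, Lpin1, Nr1d1 and Plin5.

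Replicate numbers did not pair the libraries: the deviations of same-numbered libraries correlated at -0.018, 0.0075 and 0.026, and not every library correlated best with its own number. With the replicate block 213 genes were higher and 159 lower, and Esrrg had a log2 fold change of 1.43 (edgeR adjusted p = 0.0286). The calls of Lpin1 (0.0793) and Nr1d1 (0.0595) were lost there. With sex as a covariate its adjusted p was 0.0181. Depth limits Esrrb and Ppara most, with 31 and 42 counts over all libraries.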
